A study of Mus musculus with 8 samples.

Results

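Fabp5 and 8 genes of fatty acid uptake and activation (Cd36, Scarb1, Slc27a1, Slc27a4, Acsl1, Acsl3, Acsl4 and Acsl5) were followed in regulatory T cells (Tregs) made in culture. The 9 genes were chosen by symbol for their roles, out of 53465 gene IDs counted in each library. The treated cultures were given 50 µM BMS309403, a synthetic compound that blocks fatty acid-binding proteins and that the study used against FABP5 (n = 4), and the control cultures went without it (n = 4). All 8 cultures were of wild type C57BL/6 mouse CD4+ T cells, for which the labels name the spleen as tissue and the protocol also names peripheral lymph nodes. They shared TGF-β at 5 ng/mL, IL-2 at 100 U/mL, plate-bound anti-CD3 at 5 µg/mL and soluble anti-CD28 at 0.5 µg/mL. All also had antibodies to IL-4, IL-12 and IFN-γ at 10 µg/mL, and 10% serum. They were divided between drug and no drug at 72 h. The length of exposure and a vehicle are not given in the sources used here, so that an effect through FABP5 and any other effect of the compound or its solvent cannot be told apart.

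Fatty acids reach a cell from albumin or from lipoproteins and cross the plasma membrane with the help of proteins such as CD36 and the SLC27 transporters. Inside, fatty acid-binding proteins carry them through the cytosol, and long-chain acyl-CoA synthetases (ACSL enzymes) join them to coenzyme A, which traps them in the cell and commits them to oxidation, storage or membrane lipids. FABP5, also called the epidermal fatty acid-binding protein, is a form found in T cells and macrophages, and it can deliver ligands to the nuclear receptor PPARδ.

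The libraries held between 32923433 and 44644485 counts. Foxp3, the lineage factor of Tregs, averaged 1247 ± 15.3 CPM (counts per 1e+06 counts of the TMM-scaled library) in BMS309403 libraries and 950 ± 55.6 CPM in control libraries (SD, n = 4 each). On the second principal component, with 14.7% of the variance, replicate 1 of each group lay highest. Markers of other cell types varied in level. The summed level of 15 macrophage and monocyte genes was 5.06 to 8.85 CPM in BMS309403 and 6.31 to 8.57 CPM in control libraries. For 4 CD8+ T and NK cell genes the sums were 10.2 to 14.9 CPM and 9.91 to 14.3 CPM. For 5 endothelial genes, mostly through Pecam1, they were 98.9 to 106 CPM and 117 to 126 CPM. The replicate numbers of the titles were taken to pair the cultures. That pairing entered differences by number and an alternative model with the number as a block, not the main test. Genes were tested with edgeR's quasi-likelihood test on treatment alone, and called at an adjusted p under 0.05 over all 14443 tested genes. Of 10 Treg and CD4+ T cell genes, 5 were called higher, Foxp3 among them, and 3 lower (Cd3e, Lck and Trac). Over all tested genes 18.7% were called higher and 18.1% lower. Whether the replicates were separate animals or cultures is not given in the labels, and the p-values therefore rest on a spread between libraries that may be technical.

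All 9 genes were expressed and passed the filter on low counts, and did so in the libraries of either group alone. With BMS309403, Cd36 and Acsl1 rose, Scarb1, Acsl3 and Acsl5 fell, and Fabp5, Acsl4, Slc27a1 and Slc27a4 did not pass the test. Of all tested genes 36.8% were called (18.7% higher and 18.1% lower), against 5 of these 9 genes (2 higher and 3 lower). With the replicate number as a block in the model, 6 of the 9 were called lower and the same number as before, 2, higher, beside 52.4% of all tested genes (26.6% higher and 25.8% lower). The groups did not overlap for 4 of the 9 (Cd36, Scarb1, Acsl1 and Acsl3), and for 33.8% of all tested genes. Without replicate 1 of both groups, 2 were higher and 5 lower. Calls over all genes also grew in that setting, to 3085 higher and 3088 lower, from 2694 and 2617. The median log2 fold change of the 9 was -0.19, against 0.01 for all tested genes. In bulk RNA, fewer cells of a type and less RNA per cell cannot be told apart, which holds for every value here.

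**Figure D1:**
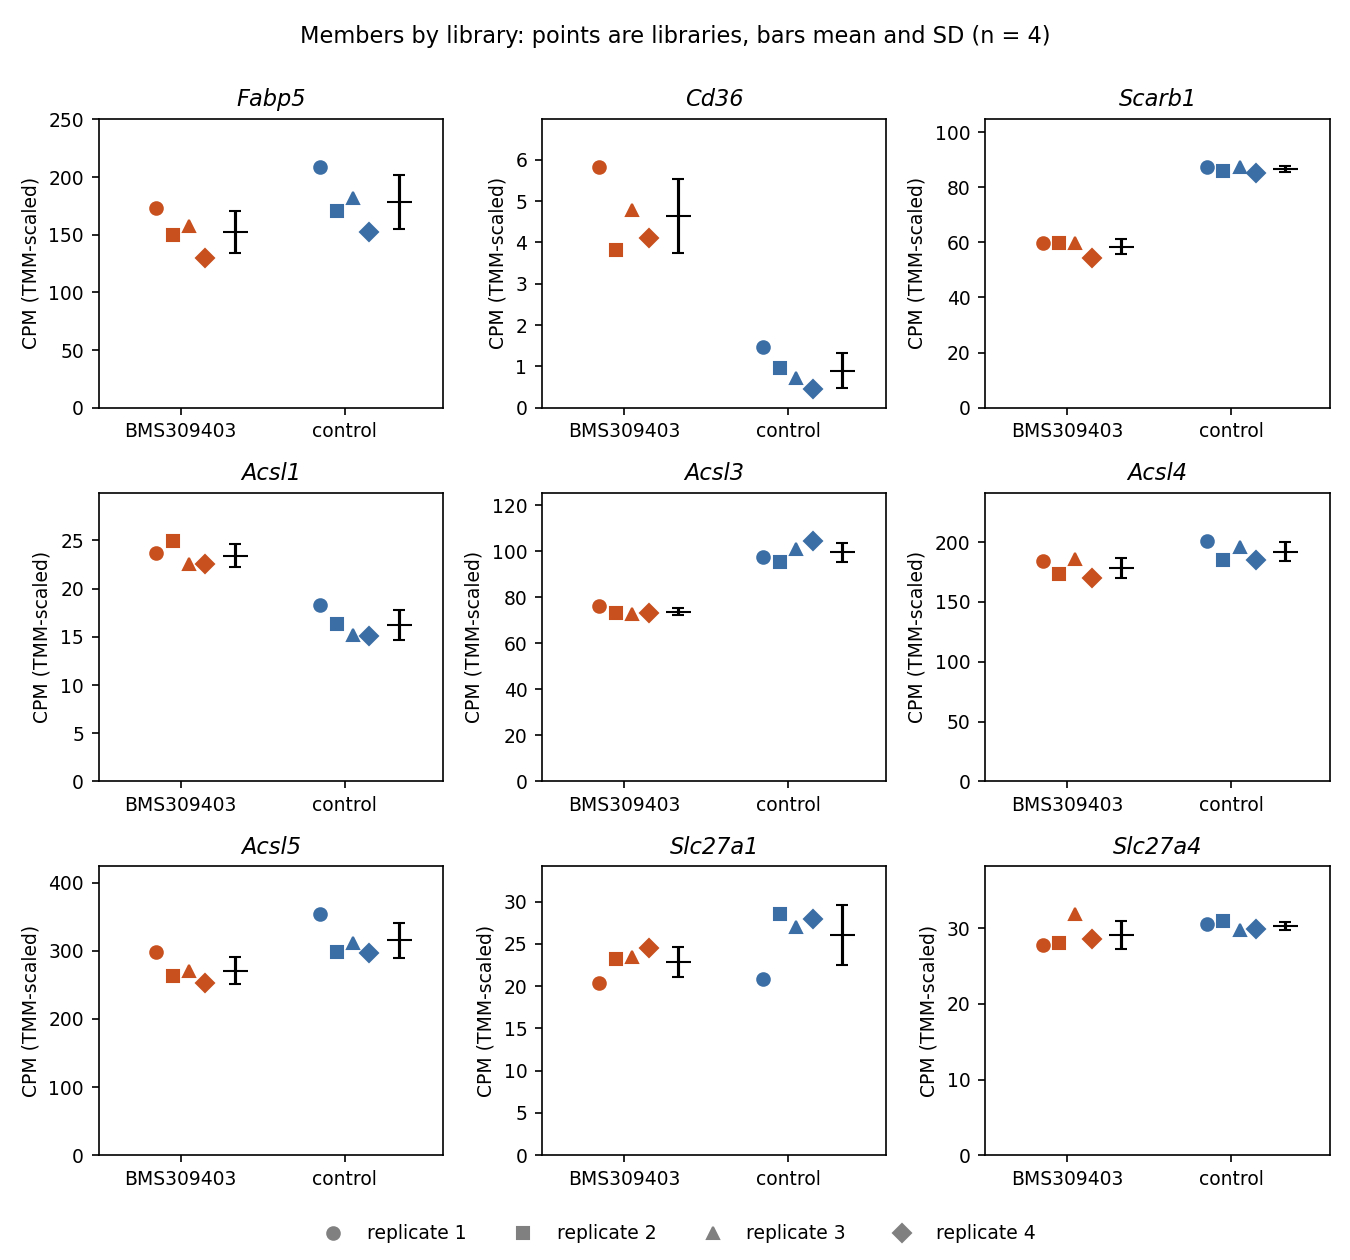
Level of each gene in each library, in TMM-scaled CPM on linear axes from 0; symbols mark the replicate number, and the black bar gives the mean and SD of 4 libraries. The groups separate for Cd36, Scarb1, Acsl1 and Acsl3, while in Fabp5 replicate 1 is highest and replicate 4 lowest in either group.

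Fabp5 (ENSMUSG00000027533; chromosome 3, 10012548 to 10016607, plus strand, GRCm38), the binding protein itself, was among the more abundant messenger RNAs, at percentile 90.5 of tested genes by mean CPM. It stood at 173, 149.9, 157 and 129 CPM in BMS309403 replicates 1 to 4, and at 209, 170.4, 182 and 152 CPM in control replicates 1 to 4. The ranges overlap, with treated replicates 1 and 3 above the lowest control library. Replicate 1 was the highest library of its group in both arms, and replicate 4 the lowest.

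Set against the control library of its own number, each treated library held less Fabp5, by -0.27, -0.18, -0.21 and -0.23 on the log2 scale for numbers 1 to 4. The fitted log2 fold change was -0.22 (SE 0.10, 95% interval -0.47 to 0.02; edgeR adjusted p = 0.0934). With the replicate block the estimate was also -0.22, but its SE was 0.03, and Fabp5 passed (edgeR adjusted p = 1.29e-05). It also passed when BMS309403 replicate 1 was left out (-0.29, edgeR adjusted p = 0.0368), when control replicate 4 was left out (-0.29, adjusted p = 0.0288), without replicate 1 of both groups (-0.21, adjusted p = 0.0372) and with no filter on low counts (adjusted p = 0.0229). Of all tested genes, 40.6% had a larger absolute log2 fold change.

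Copies of Fabp5 in the genome could take part of its reads. GENCODE M21 lists 5 processed pseudogenes, Gm6166, Gm14328, Fabp5l2, Gm13998 and Gm6100, whose transcripts share runs of 50 bases with those of Fabp5, and 5.48% of the 50-base runs of Fabp5 transcripts occur in other genes. The counts assigned to those 5 together came to between 0.325% and 0.539% of the Fabp5 count in BMS309403 libraries, and between 0.36% and 0.579% in control libraries.

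Other genes of the FABP5 family were low or at 0. Of 14 other lipid-binding proteins of its fold, 7 had no count in any library. Fabp4, the adipocyte and macrophage form, and Fabp3, the heart form, each had 1 count over the 4 BMS309403 libraries and 0 over the 4 control libraries, and Fabp7, the brain form, had 0 and 1. Crabp2, which binds retinoic acid, averaged 3.19 CPM in BMS309403 and 4.52 CPM in control libraries (log2 fold change -0.50, edgeR adjusted p = 0.105). It passed with the replicate block (edgeR adjusted p = 0.00202), without BMS309403 replicate 1 (0.0239) and without control replicate 4 (0.032). Crabp2 also passed without replicate 1 of both groups (0.0284) and with no filter on low counts (0.0305).

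Cd36 (ENSMUSG00000002944; chromosome 5, 17781690 to 17888801, minus strand), a scavenger receptor that takes up fatty acids and oxidized lipoproteins, showed the largest change of the 9, and 0.512% of tested genes changed more. It was also the rarest. Its raw counts were 229, 164, 185 and 171 in BMS309403 replicates 1 to 4 and 47, 43, 24 and 18 in control replicates 1 to 4. Scaled, it had 5.83, 3.80, 4.79 and 4.11 CPM in BMS309403 replicates 1 to 4, and 1.46, 0.966, 0.714 and 0.449 CPM in control replicates 1 to 4. Every treated library lay above every control library, and the control libraries were widely spread around their mean of 0.896 ± 0.429 CPM (SD, n = 4). The fitted rise was 5.22-fold (log2 fold change 2.39, SE 0.26, 95% interval 1.76 to 3.02; edgeR adjusted p = 2.35e-05). By replicate number the log2 difference was 2.00, 1.98, 2.74 and 3.19.

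Macrophages, dendritic cells, platelets, endothelial cells and adipocytes also express Cd36. The macrophage and monocyte sum given above overlapped between the groups, while 10 of its 15 genes had a higher mean in BMS309403 and 5 a lower one. Among those higher, Csf1r had 32 counts over the 4 BMS309403 libraries and 17 over the 4 control libraries, Cd14 44 and 21, C1qa 22 and 8, Msr1 18 and 9, and Fcgr1 3 and 0. Among those lower, Adgre1 had 22 counts in BMS309403 and 82 in control, Itgam 13 and 49, and C1qc 7 and 12. Only Adgre1, Cd68, Lyz2 and Cybb of the list were tested, and of these Adgre1 was called (lower). The sum of 7 dendritic cell genes was 8.17 to 11.5 CPM in BMS309403 and 3.96 to 4.42 CPM in control libraries. Zbtb46, a transcription factor, made up most of that sum, at 8.89 and 3.60 CPM, and was called higher (edgeR adjusted p = 1.33e-05). Of the 7 genes, 2 had a higher mean in BMS309403 (Zbtb46 and Siglech) and 4 a lower one. Among those lower, Itgax had 43 counts over the BMS309403 libraries and 50 over the control libraries, Flt3 32 and 38, and Xcr1 4 and 8. Cd209a had no count, and Clec9a had 0 in BMS309403 and 1 in control libraries. Among 5 platelet genes the sum was 1.91 to 3.03 CPM in BMS309403 and 1.30 to 2.67 CPM in control, with Ppbp, Gp9 and Gp1bb at 0 counts in every library. The sum of 5 endothelial genes was 98.9 to 106 CPM in BMS309403 and 117 to 126 CPM in control; Pecam1, which T cells also express, supplied nearly all of it, and Cdh5 had 2 and 0 counts. The sum of 4 adipocyte genes reached at most 0.0928 CPM in BMS309403 and 0.0499 CPM in control libraries. The part of the macrophage and dendritic cell lists in the Cd36 result was not tested.

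The promoter windows of Cd36, Acsl1 and Acsl3 are shown because these, with Scarb1, changed most. RefSeq (GRCm38.p6) gave windows of 250 bases before to 50 after a start for 7 of the 9 genes, 10 windows in all, and none for Fabp5 and Scarb1. Capitals mark the GC box GGGCGG and the nuclear receptor hexamer AGGTCA on either strand. Cd36 is written on the minus strand (chr5:17835847-17836146), and Acsl1 (chr8:46470787-46471086, and a second start at chr8:46490716-46491015) and Acsl3 (chr1:78657575-78657874) on the plus strand. The Cd36 window lies at a start inside the annotated gene, which on that strand begins at 17888801.
Cd36: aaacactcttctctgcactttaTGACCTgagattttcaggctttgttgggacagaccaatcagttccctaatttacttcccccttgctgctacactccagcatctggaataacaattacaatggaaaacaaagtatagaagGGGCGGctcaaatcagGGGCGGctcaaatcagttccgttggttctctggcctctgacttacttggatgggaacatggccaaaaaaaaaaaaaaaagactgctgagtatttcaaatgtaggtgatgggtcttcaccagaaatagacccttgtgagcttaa
Acsl1, first start: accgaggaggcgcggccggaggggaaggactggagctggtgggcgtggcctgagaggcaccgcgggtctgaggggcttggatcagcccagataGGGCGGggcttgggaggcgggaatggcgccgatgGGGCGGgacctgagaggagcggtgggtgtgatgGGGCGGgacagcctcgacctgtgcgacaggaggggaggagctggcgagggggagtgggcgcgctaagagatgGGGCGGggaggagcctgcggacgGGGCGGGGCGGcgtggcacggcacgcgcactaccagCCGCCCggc
Acsl1, second start: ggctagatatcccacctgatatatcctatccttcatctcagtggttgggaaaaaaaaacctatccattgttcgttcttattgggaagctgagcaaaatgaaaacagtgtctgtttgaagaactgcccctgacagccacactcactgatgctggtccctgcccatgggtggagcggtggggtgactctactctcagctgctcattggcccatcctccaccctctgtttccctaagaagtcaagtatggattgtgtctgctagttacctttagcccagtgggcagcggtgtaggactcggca
Acsl3: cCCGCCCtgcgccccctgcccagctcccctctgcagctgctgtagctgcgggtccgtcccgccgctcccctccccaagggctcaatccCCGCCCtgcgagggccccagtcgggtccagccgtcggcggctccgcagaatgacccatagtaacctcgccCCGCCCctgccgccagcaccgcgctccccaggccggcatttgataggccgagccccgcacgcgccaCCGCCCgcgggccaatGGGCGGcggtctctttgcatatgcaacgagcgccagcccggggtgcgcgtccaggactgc

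The Cd36 window held 43.0% G and C, against a median of 52.7% over all 32851 windows, and the Acsl3 window and the first Acsl1 window held 74.0% each. GC boxes numbered 2 in the Cd36 window, 7 in the first Acsl1 window, 0 in the second and 5 in Acsl3; 35.66% of all windows have at least 1. The single AGGTCA among the 10 windows stood in Cd36, as TGACCT, and 16.26% of all windows hold that hexamer. The E-box CACGTG was found in 1 of the 10, the third start of Slc27a1, and in 7.15% of all windows. A match of letters is a description, and other regions were not searched.

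Scarb1 (ENSMUSG00000037936; chromosome 5, 125277087 to 125341094, minus strand), the receptor of high-density lipoprotein and a relative of CD36, fell with little spread. It had 59.96, 59.8, 59.7 and 54.4 CPM in BMS309403 replicates 1 to 4, and 87.4, 86.1, 87.3 and 85.2 CPM in control replicates 1 to 4. No treated library came near a control library. It was 1.48-fold lower (log2 fold change -0.56, SE 0.04, 95% interval -0.67 to -0.46; edgeR adjusted p = 1.13e-06). The remaining member of that receptor family, Scarb2 of the lysosome, averaged 87.5 and 86.0 CPM (log2 fold change 0.02, edgeR adjusted p = 0.665).

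Slc27a1 (chromosome 8, 71568882 to 71587302, plus strand) and Slc27a4 (chromosome 2, 29802634 to 29817522, plus strand) encode FATP1 and FATP4, transporters that also activate very long chains. Slc27a1 stood at 20.4, 23.2, 23.5 and 24.5 CPM in BMS309403 replicates 1 to 4, and at 20.8, 28.5, 27.0 and 27.9 CPM in control replicates 1 to 4. Control replicate 1 lay within the treated range and the other control libraries above it. Its log2 fold change was -0.19 (SE 0.09, 95% interval -0.42 to 0.04; edgeR adjusted p = 0.134), and it was called lower with the replicate block (-0.19, adjusted p = 0.00475), without control replicate 1 (-0.28, adjusted p = 0.00353) and without replicate 1 of both groups (-0.24, adjusted p = 0.00259). Slc27a4 had 27.7, 28.0, 31.8 and 28.6 CPM in BMS309403 replicates 1 to 4, and 30.5, 31.0, 29.7 and 29.9 CPM in control replicates 1 to 4. Treated replicate 3 was the highest of all 8 libraries and the other treated libraries the lowest. Its log2 fold change of -0.06 had a 95% interval of -0.19 to 0.07 (edgeR adjusted p = 0.41).

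Of the 4 ACSL genes, Acsl1 rose, Acsl3 and Acsl5 fell, and Acsl4 did not pass the test. Acsl1 (ENSMUSG00000018796; chromosome 8, 46471037 to 46536051, plus strand), the main form of fat, heart and liver, rose to 23.7, 25.0, 22.6 and 22.6 CPM in BMS309403 replicates 1 to 4, against 18.3, 16.3, 15.2 and 15.0 CPM in control replicates 1 to 4. The groups did not overlap. The rise was 1.45-fold (log2 fold change 0.53, SE 0.07, 95% interval 0.36 to 0.71; edgeR adjusted p = 0.000122).

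Acsl3 (ENSMUSG00000032883; chromosome 1, 78657825 to 78707743, plus strand), an enzyme of the endoplasmic reticulum and of growing lipid droplets, had 76.1, 73.1, 72.8 and 73.3 CPM in BMS309403 replicates 1 to 4, and 97.7, 95.4, 101 and 104.7 CPM in control replicates 1 to 4. All treated libraries lay below all control libraries. It was 1.35-fold lower (log2 fold change -0.43, SE 0.04, 95% interval -0.53 to -0.33; edgeR adjusted p = 7.92e-06). Utp14b, a gene on the same strand, shares 244 bases of exon with Acsl3 and 3.59% of its 50-base runs, so that the counting may have split reads between them. Utp14b was itself 1.40-fold lower, at 38.5 ± 0.547 CPM in BMS309403 and 53.8 ± 3.12 CPM in control libraries (SD, n = 4; edgeR adjusted p = 1.35e-05).

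Acsl5 (ENSMUSG00000024981; chromosome 19, 55251938 to 55297720, plus strand), found on mitochondria and the endoplasmic reticulum, had 298, 263, 271 and 252 CPM in BMS309403 replicates 1 to 4, and 353, 299, 311 and 297 CPM in control replicates 1 to 4. Treated replicate 1 lay marginally above the lowest control library, and the other treated libraries below all control libraries. Its log2 fold change was -0.22 (SE 0.07, 95% interval -0.38 to -0.06; edgeR adjusted p = 0.0209). The call was lost without BMS309403 replicate 2 (adjusted p = 0.0616) or BMS309403 replicate 4 (adjusted p = 0.0662). Acsl5 overlaps Zdhhc6 on the opposite strand by 404 bases of exon; Zdhhc6 averaged 68.1 and 65.6 CPM (log2 fold change 0.06, edgeR adjusted p = 0.336).

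Acsl4 (chromosome X, 142317993 to 142390535, minus strand), which prefers arachidonic acid and other polyunsaturated fatty acids, had 184.5, 173, 186 and 169.6 CPM in BMS309403 replicates 1 to 4, and 201.2, 185, 196 and 185 CPM in control replicates 1 to 4. The ranges overlapped, treated replicate 3 being above control replicates 2 and 4. The log2 fold change was -0.11 (95% interval -0.22 to 0.01; edgeR adjusted p = 0.0919), and it was called with the replicate block (adjusted p = 0.00592).

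**Figure D2:**
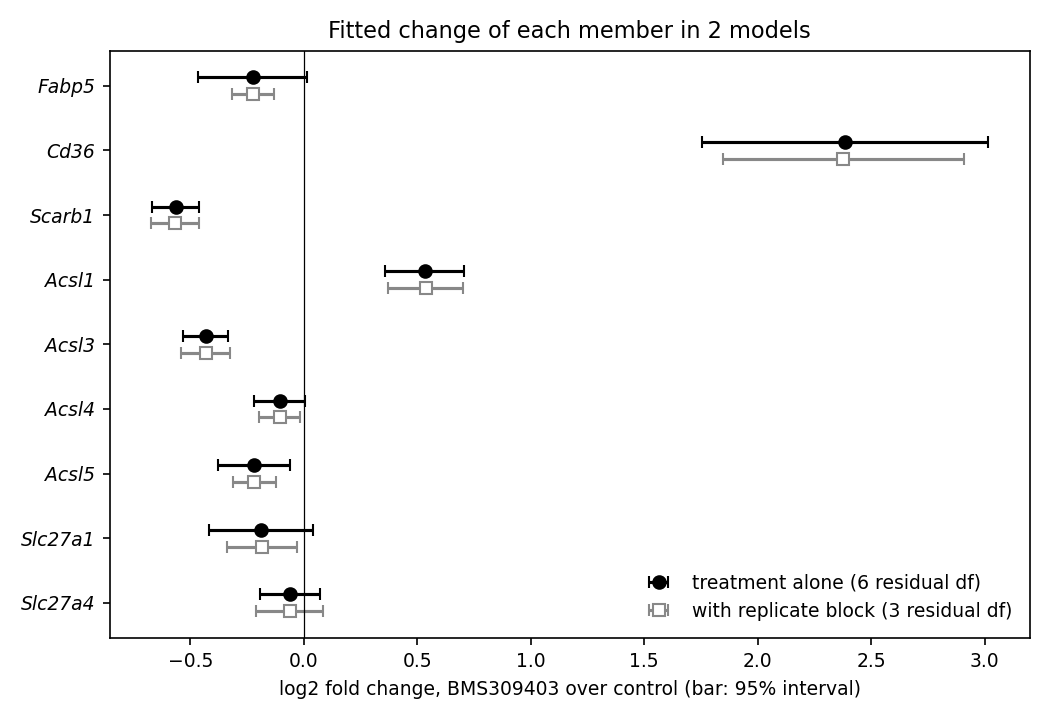
Fitted log2 fold change of BMS309403 over control for each gene, with 95% intervals, without the replicate block (filled circles) and with it (open squares). The estimates barely move between the models, while the intervals of Fabp5, Acsl4 and Slc27a1 include 0 in the first and exclude it in the second. The intervals use residual degrees of freedom alone and are wider than the test implies. Without the block, the edgeR p before adjustment was 0.0414 for Fabp5 and 0.0405 for Acsl4 (adjusted p = 0.0934 and 0.0919).

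Compared per length (CPM per kilobase of merged exons), Acsl5 was the most abundant of the 9 in both groups and Cd36 the least. In BMS309403 libraries the levels ran, high to low, from Acsl5 (55.7 ± 3.98) through Fabp5 (42.8 ± 5.12), Acsl4 (33.0 ± 1.53), Acsl3 (17.0 ± 0.356), Scarb1 (6.88 ± 0.317), Slc27a4 (6.58 ± 0.423), Slc27a1 (3.92 ± 0.2995) and Acsl1 (2.24 ± 0.11) to Cd36 (1.29 ± 0.249; SD, n = 4). In control libraries the order of the levels was the same, with Acsl5 at 64.8 ± 5.38, Fabp5 at 50.0 ± 6.65, Scarb1 at 10.2 ± 0.126, Slc27a4 at 6.86 ± 0.131 and Cd36 at 0.2497 ± 0.119 (SD, n = 4). Ranges of neighbours in that order did not overlap, except Scarb1 (6.41 to 7.05) and Slc27a4 (6.29 to 7.20) in BMS309403 libraries. With the median transcript length in place of merged exons, 7 of the 9 took another place in either group, Scarb1 among them, while Acsl5 stayed first and Cd36 last.

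**Figure D3:**
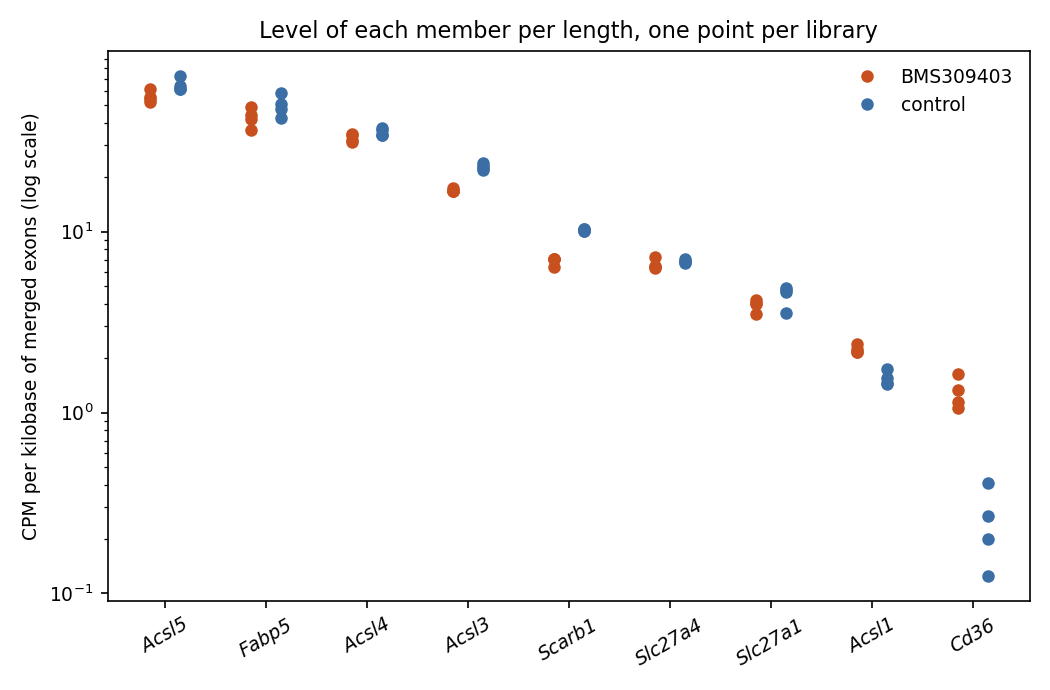
Level of each gene per kilobase of merged exons, a point per library, on a log axis and in the order of the control mean. The genes span from over 50 for Acsl5 in either group to 0.2497 for Cd36 in control libraries. By this length Scarb1 falls to the level of Slc27a4 in BMS309403 libraries. With median transcript lengths their means there were 71.1 and 12.2.

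As a share of the summed ACSL level per length, which also holds the brain-enriched Acsl6, Acsl5 took 48.7% ± 0.907 in BMS309403 and 49.1% ± 1.18 in control libraries (SD, n = 4). Acsl4 followed with 28.9% ± 0.852 and 27.0% ± 0.642. Acsl3 took 14.9% ± 0.586 and 17.4% ± 1.34, and Acsl1 1.96% ± 0.13 and 1.17% ± 0.0671. The summed level was 107.8 to 122 in BMS309403 and 126 to 143 in control libraries, in CPM per kilobase. The ranges of the Acsl1, Acsl3 and Acsl4 shares did not overlap between the groups, and those of Acsl5 did. The shares depend on the length used. With median transcript lengths, tried after seeing the data, Acsl5 took 73.9% in BMS309403 and 74.0% in control libraries, Acsl3 13.3% and 15.5%, Acsl4 4.79% and 4.44%, and Acsl1 4.64% and 2.76%. Acsl3 then came before Acsl4, and of these shares the Acsl1 share alone did not overlap between the groups.

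**Figure D4:**
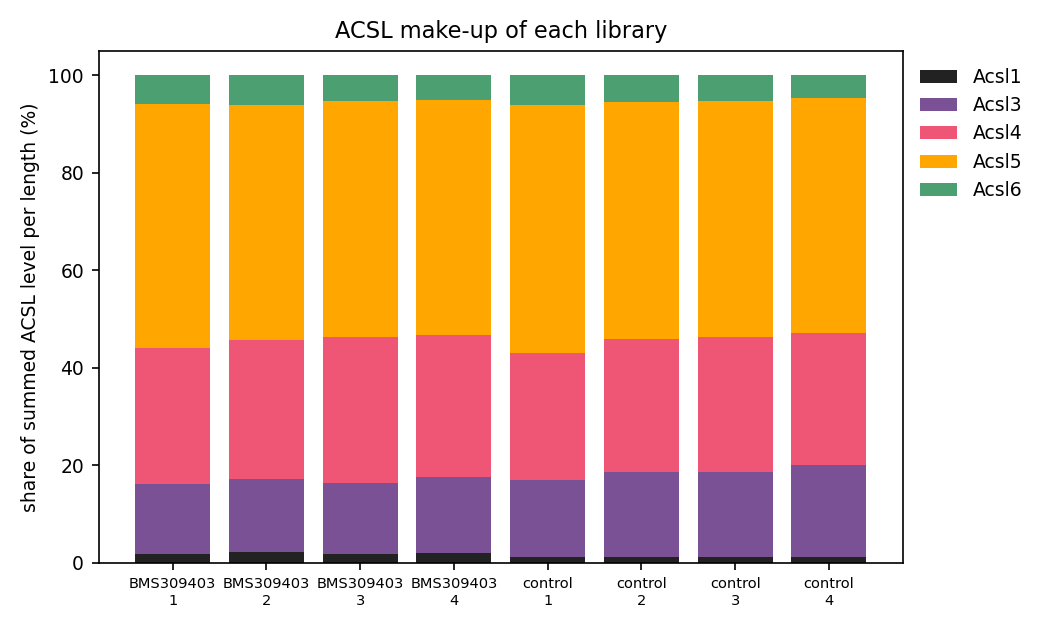
Share of each ACSL gene in the summed ACSL level per kilobase of merged exons (%), a bar per library. Acsl5 and Acsl4 fill most of each bar in both groups; Acsl1, at the foot, takes 1.85% to 2.13% with BMS309403 and 1.10% to 1.23% in control.

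In a wider set of 91 genes around this pathway, 59 were tested, of which 10 rose and 15 fell, with a median log2 fold change of -0.04; with the replicate block 12 rose and 19 fell. The 25 called are 42.4% of those tested, near the 36.8% of all tested genes, and the 31 called with the block are 52.5%, beside 52.4%. Among all tested genes 18.7% were called higher and 18.1% lower, and their median log2 fold change was 0.01. These lists were not tested as sets. Among 19 other genes of fatty acid and lipoprotein uptake, 11 were tested, of which 3 rose and 3 fell (median log2 fold change -0.04). Mfsd2a, a carrier of lysophospholipids with long polyunsaturated chains, rose 1.48-fold to 18.3 ± 2.42 CPM in BMS309403, against 12.4 ± 1.51 CPM in control (SD, n = 4; edgeR adjusted p = 0.00137). Lrp1 and Lrp8, which are lipoprotein receptors, rose 1.28-fold and 1.12-fold. Both lost the call without BMS309403 replicate 1, 2 or 4 or control replicate 2 or 3, with edgeR adjusted p between 0.0556 and 0.1 for Lrp1 and between 0.0625 and 0.113 for Lrp8. Ffar4, a cell-surface receptor for long-chain fatty acids, fell 1.72-fold to 6.09 CPM in BMS309403, against 10.5 CPM in control. Got2, a mitochondrial aminotransferase also found at the plasma membrane, was 1.15-fold lower. Lpl, Cav1 and Slc27a2 were too low to test.

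Of 14 other acyl-CoA ligases 7 were tested, of which 4 fell and 0 rose (median log2 fold change -0.43), where 18.1% of all tested genes were lower; with the replicate block 6 fell, where 25.8% of all tested genes were lower. Acss1 and Acss2, which activate acetate in mitochondria and in the cytosol, fell 1.88-fold and 1.54-fold. Acsf2 fell 1.41-fold and Aacs, which activates acetoacetate, 1.34-fold. The long-chain forms Acsl6 and Acsbg1 had log2 fold changes of -0.15 and -0.13 (edgeR adjusted p = 0.306 and 0.114), and both were called lower with the replicate block. Acsbg1 was also called without control replicate 1 (edgeR adjusted p = 0.0185) and without replicate 1 of both groups (0.00998).

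Among 16 genes that bind acyl-CoA or split it, 14 were tested, of which 2 rose and 1 fell (median log2 fold change -0.06). That is 21.4% called, against 36.8% of all tested genes. Dbi, the acyl-CoA-binding protein, fell 1.67-fold to 51.5 ± 5.19 CPM in BMS309403, against 85.7 ± 5.12 CPM in control (SD, n = 4; edgeR adjusted p = 7.46e-06). The mitochondrial thioesterase Acot2, which releases the fatty acid from its CoA, rose 2.01-fold, and Them4 rose 1.31-fold. Acot7 and Acot9, the thioesterases with the most counts, had log2 fold changes of -0.03 and 0.03 (edgeR adjusted p = 0.554 and 0.555).

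Of 18 enzymes that take acyl-CoA onward 17 were tested, of which 4 rose and 2 fell (median log2 fold change 0.05). The share called, 35.3%, was near the 36.8% of all tested genes. The largest rises were those of Soat2, which esterifies cholesterol, 3.38-fold to 18.8 CPM in BMS309403 against 5.52 CPM in control, and Dgat2, which completes triglyceride, 2.36-fold. Agpat3 and Gpat4, earlier in glycerolipid synthesis, rose 1.25-fold and 1.15-fold. Lpcat3, which places polyunsaturated chains in phospholipids, fell 1.34-fold, and Soat1, the other cholesterol-esterifying enzyme, 1.28-fold. Cpt1a, which hands acyl groups to carnitine at the mitochondrion, had a log2 fold change of 0.02 (edgeR adjusted p = 0.878).

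Of 10 lipid-sensing receptors and factors known to act on genes like these, 8 were tested, of which 1 rose and 4 fell (median log2 fold change -0.01). Among all tested genes 18.7% were called higher and 18.1% lower. Rxra, the partner of the PPARs, rose 1.75-fold. Pparg fell 2.89-fold to 0.594 CPM in BMS309403, against 1.74 CPM in control, and Ppard, the abundant PPAR here at 65.5 and 62.1 CPM, had a log2 fold change of 0.08 (edgeR adjusted p = 0.27). Srebf1 and Srebf2, which drive lipid and sterol synthesis, fell 1.45-fold and 1.19-fold. The smallest fall, that of Rxrb (log2 fold change -0.10, edgeR adjusted p = 0.0466), lost its call when any single BMS309403 library or control replicate 2, 3 or 4 was left out, with adjusted p between 0.0599 and 0.111, and with no filter on low counts (0.19). Ppara had 2 counts in each group.

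**Figure D5:**
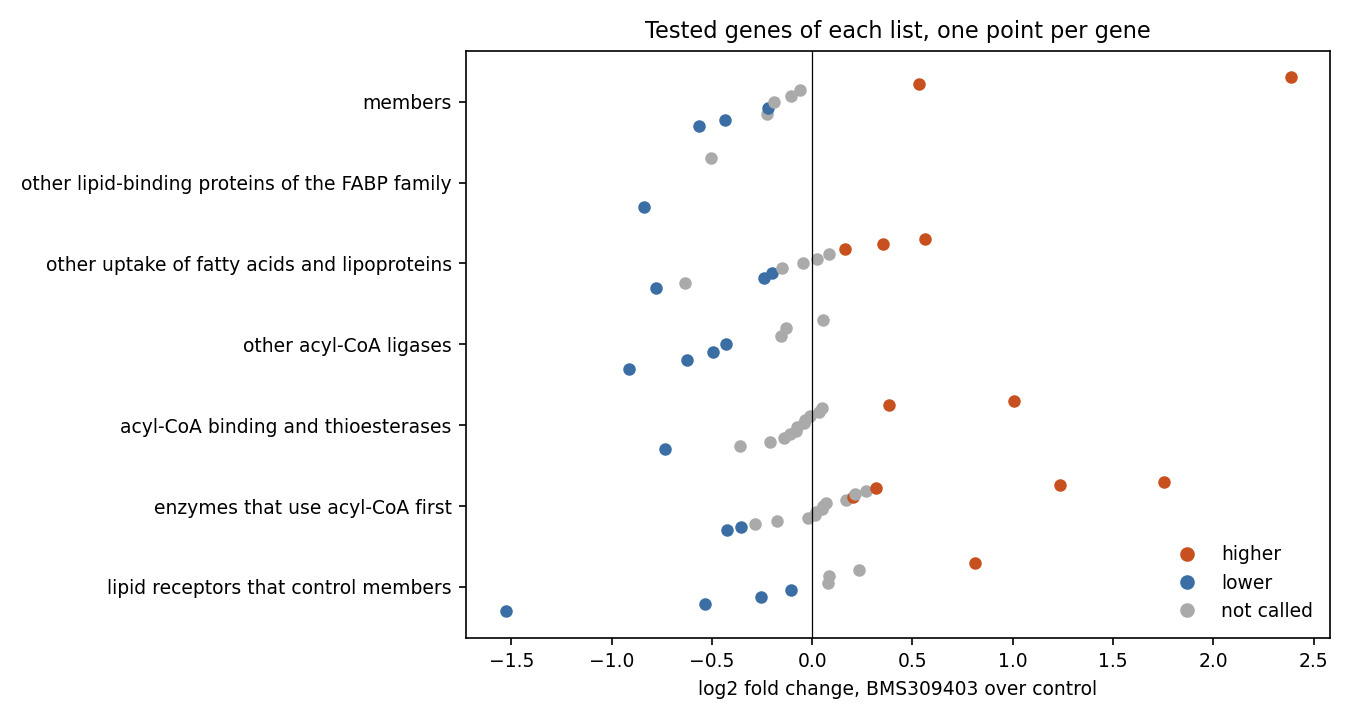
Log2 fold change of BMS309403 over control for each tested gene of the 9 (top row) and of the 6 other lists; colour gives the edgeR call. Cd36 is the rightmost point at 2.39, and Pparg the leftmost at -1.53.

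The genes most like Fabp5 in how single libraries deviated from their group mean, over 8 libraries and as log2(CPM + 0.5), were Cdk5rap1, Sept9, Dad1, C1d and Nudt19, with Pearson's r between 0.993 and 0.997. Of these, Dad1 and C1d were called lower (log2 fold change -0.37 and -0.36), and Cdk5rap1 had a log2 fold change of -0.02. For Cd36 they were Rcl1, Mfsd5, Ammecr1, Il2rg and Csf1, with r between 0.987 and 0.996. Csf1, a growth factor of macrophages, was higher with a log2 fold change of 0.94, and Il2rg, the common cytokine receptor chain, with 0.22. These values describe the top of a ranking of all such genes, in which libraries of the same number tended to deviate together, and carry no test.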

How the data were processed

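The authors deposited a file of raw counts per Ensembl gene for each of the 8 libraries; the submitters' processing notes name GRCm38 as the build and deepTools, DESeq2, featureCounts and STAR as tools, with versions, strand setting and treatment of multi-mapped reads not given in the sources used here. Per the labels' protocols the libraries were stranded and poly(A)-selected. Symbols, coordinates and exon lengths came from GENCODE M21 (53360 of 53465 IDs matched).

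Counts were tested with edgeR 4.0.16 in R 4.3.3 (filterByExpr, TMM, glmQLFTest, Benjamini-Hochberg over 14443 genes), with treatment alone in the model; DESeq2 1.42.0 and limma 3.58.1 (voom) were alternatives. SEs came from the F statistic, and 95% intervals from the t distribution on 6 residual degrees of freedom, which omits the prior degrees of freedom of the test and is wider. Depth was 38684721 to 42552943 counts in BMS309403 and 32923433 to 44644485 in control libraries.

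After removing group means, libraries of the same number correlated at 0.338 to 0.701 across 9908 genes, on which the pairing rests; the labels do not state it. BMS309403 replicate 2 correlated best with control replicate 4, and each other library with its own number. Libraries of a group differed beyond sampling noise (chi-square per degree of freedom 3.08 to 24.2), and none was merged.

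The 9 genes and the other lists were chosen with earlier results of these data known. Named genes are the 9, up to 4 called genes per list by size, uncalled ones with values, and the 5 most like Fabp5 or Cd36 with a mean of at least 5 CPM. Utp14b and Zdhhc6 were named for their overlap, and Got2, Lrp8, Rxrb, Agpat3 and Gpat4 after their values were seen. Some genes of these lists are counted but not reported here by name.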

Additional observations from a re-analysis of the deposited data

Results flagged for a closer look

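Among the 18 sets of 4 libraries (9 genes in 2 groups), 2 held a library far from the others; chance gives such a gap in about 1 of 20 sets. Scarb1 in BMS309403 replicate 4 was at 54.44 CPM, against 59.7 CPM in the nearest library of its group. Acsl3 in BMS309403 replicate 1 was at 76.14 CPM, against 73.3 CPM in the nearest. Neither gene lost its call without that library.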

How the results depend on the processing

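Under 14 other settings each of the 9 genes kept its direction, and Cd36, Scarb1, Acsl1, Acsl3 and Slc27a4 also kept their side of the threshold. With the replicate block 6 of the 9 were called lower in place of 3, Fabp5 (-0.22), Acsl4 (-0.11) and Slc27a1 (-0.19) being added; it changed no other call among the 9. With no filter on low counts Fabp5 was called at -0.22. Leaving out each library in turn gave -0.29 to -0.14 for Fabp5, -0.27 to -0.16 for Acsl5 and -0.28 to -0.14 for Slc27a1, with edgeR adjusted p between 0.0288 and 0.242, 0.00671 and 0.0662, and 0.00353 and 0.313. Without replicate 1 of both groups, an alternative chosen after seeing the data, 5 were called lower, with Fabp5 at -0.21 and Slc27a1 at -0.24. Over all genes 3088 were called lower in that setting, against 2617 in the main fit. The cause was not tested. With median transcript lengths 7 of 9 genes moved in the order of levels in either group, and the ACSL shares moved too, that of Acsl4 to 4.79% in BMS309403 and 4.44% in control libraries. Cd36 rests on 18 to 47 counts per control library, so its fold is the least certain.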
